A study of Homo sapiens with 4 samples.

Results

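The HOX genes are the 39 members of 4 chromosomal clusters, taken as every symbol made of HOX, a cluster letter from A to D and a number, and all 39 were present among the 35371 gene symbols of the table. They encode homeodomain transcription factors that give cells their position along the body axis. The 4 clusters arose by duplication of an ancestral one, so a number marks a paralog group: low numbers lie at one end of a cluster and pattern anterior structures, high numbers lie at the other end and pattern posterior ones. In the female reproductive tract, the posterior HOXA genes (HOXA9, HOXA10, HOXA11 and HOXA13) are known for specifying the oviduct, uterus, cervix and vagina.

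RNA-seq was run on A2780 cells, an established human ovarian cancer line grown as a monolayer. There were 2 libraries from cells given GD-07, which the series text presents as an inhibitor of MYC, and 2 control libraries. Labels on the control samples read as no treatment, the series text names a vehicle, and neither gives a dose or a time. Separate cultures are not stated for the replicates, so every p-value rests on variation among 4 libraries that could be technical.

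Values are TPM, transcript abundance corrected for length and library total. TPM keeps no read depth, so depth is unknown and a gene listed at 0 may still be transcribed. The columns summed to 912781 and 918646 TPM with GD-07 and to 918209 and 917531 TPM in controls. GD-07 replicate 2 stood apart, with 14683 symbols listed at 0 against 11598 to 12346 in the other libraries, and with mitochondrial transcripts at 6.52% of its TPM against 2.52% to 4.36%. Of 16 markers of epithelial ovarian carcinoma, 4 averaged 1 TPM or more. These 4 were FOLR1, MUC1, KRT18 and EPCAM. FOLR1, a folate receptor, was at 61.1 and 59.2 TPM with GD-07 and at 46.4 and 50.1 TPM in controls. MUC1 was at 13.6 and 20.9 TPM with GD-07 and at 25.9 and 17.7 TPM in controls. KRT18 averaged 4.91 TPM and EPCAM 2.33 TPM over all libraries. PAX8, WT1, KRT7, MUC16 and CDH1 were each at or under 0.381 TPM in every library. The mesenchymal filament VIM was at 2302 and 2485 TPM with GD-07 and at 2656 and 2315 TPM in controls. Across the 10 mesenchymal markers that were tested, 1 fell (THY1, a surface glycoprotein, log2 fold change -0.80 ± 0.15, limma adjusted p = 0.0276, and 0.126 without control replicate 1) and 9 did not pass. All 10 had negative values, with a median log2 fold change of -0.46 against -0.04 over all tested genes, of which 3.19% fell. The list summed to 2397 and 2606 TPM with GD-07 and to 2840 and 2477 TPM in controls, most of it VIM. Means of its other members ran from 0.291 TPM for CDH2 to 71.0 TPM for THY1. The epithelial list summed to 86.8 and 93.3 TPM with GD-07 and to 80.6 and 77.0 TPM in controls. The part of either in the HOX values was not tested. No blood or endothelial marker was above 1.63 TPM in any library.

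HOXB and HOXC carried nearly all HOX transcript in these cells, with or without GD-07. HOXB made up 55.7% and 53.3% of summed HOX TPM in the GD-07 libraries and 55.2% and 54.8% in the controls. HOXC made up 43.5% and 45.9% with GD-07 and 44.1% and 44.5% in controls. HOXA and HOXD together held under 1% in every library. The near-silent clusters thus include the HOXA genes of the reproductive tract: HOXA9, HOXA10, HOXA11 and HOXA13 were each at or below 0.200 TPM in all 4 libraries.

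**Figure D1:**
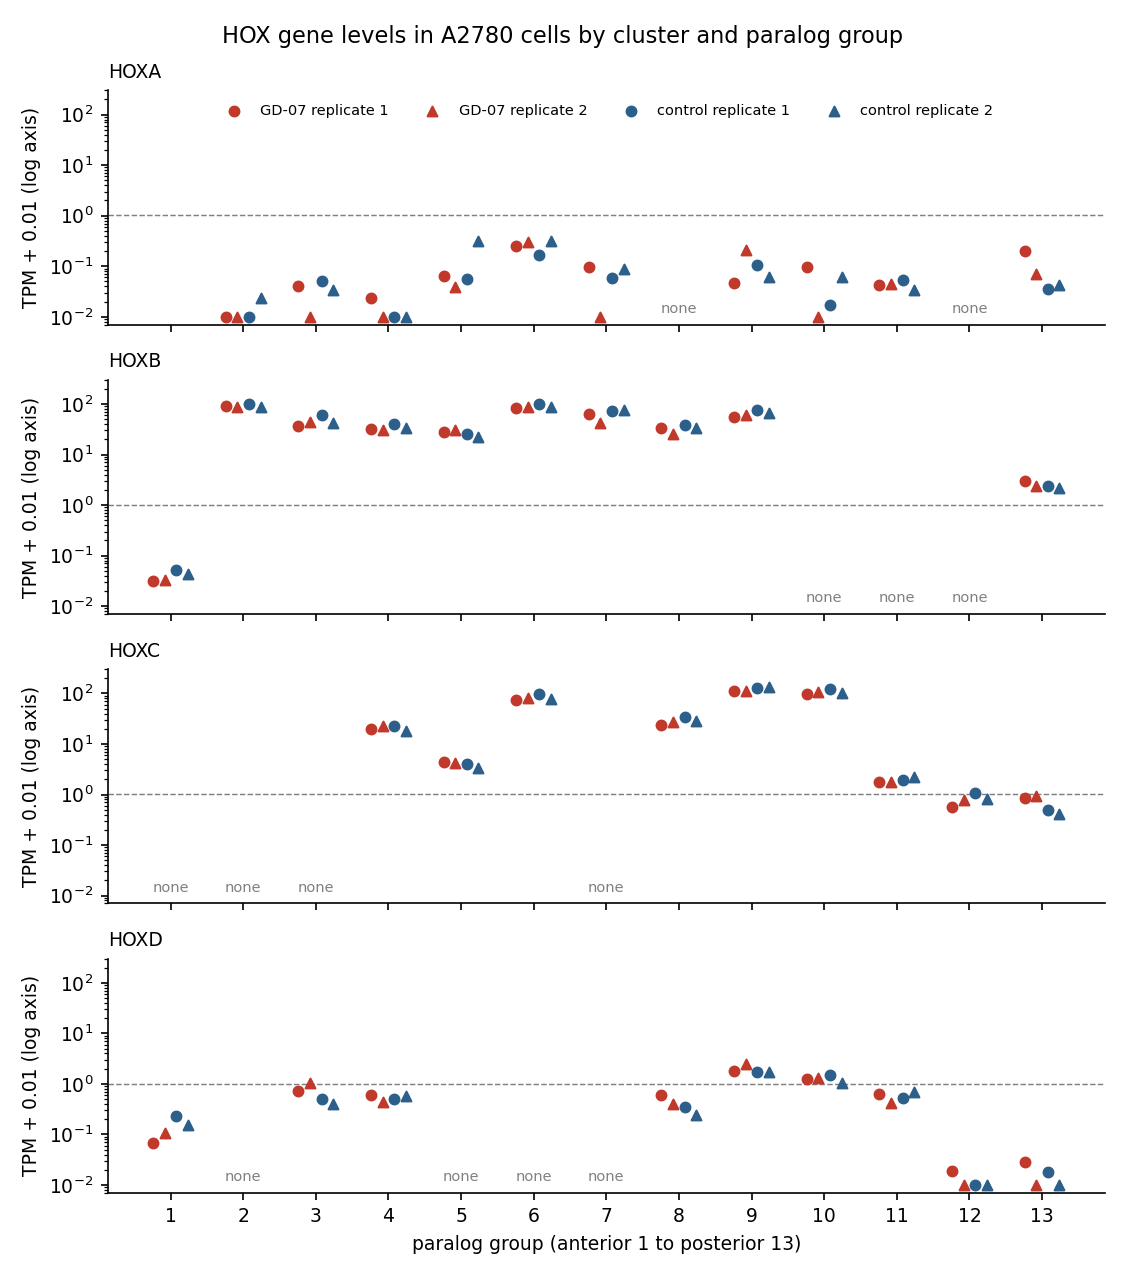
Level of HOX genes in each library, in TPM plus 0.01 on a log axis, by cluster (panels) and paralog group (x axis). Red symbols are GD-07, blue are control, circles replicate 1 and triangles replicate 2; the dashed line marks the 1 TPM filter, and "none" marks a gene the cluster does not have. HOXB2 to HOXB9 and HOXC4 to HOXC10 lie above the line in all libraries, and the HOXA genes plotted lie below it.

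The HOXB cluster lies on chromosome 17 from 48528526 to 48729178 in GRCh38 and spans 200.7 kb. Its 9 genes from HOXB2 to HOXB13 passed the filter (4-library mean of 1 TPM or more), and the tenth, HOXB1, did not. HOXB1, which in mice sets the identity of a hindbrain segment, was at 0.0217 and 0.0226 TPM with GD-07 and at 0.0423 and 0.0326 TPM in controls. HOXB2, whose outermost annotated start is 13.99 kb away, was at 91.1 and 88.3 TPM with GD-07 and at 98.6 and 87.7 TPM in controls. The edge of expression at the anterior end of HOXB therefore fell between these neighbours, in every library. At the posterior end, HOXB9 was at 55.3 and 61.1 TPM with GD-07 and at 76.7 and 66.2 TPM in controls. HOXB13, a factor best known from prostate, was at 3.05 and 2.43 TPM with GD-07 and at 2.38 and 2.20 TPM in controls. The level per length of HOXB9 was thus 18.2-fold and 25.1-fold that of HOXB13 with GD-07, and 32.2-fold and 30.0-fold in controls. Of symbols other than HOX genes inside the clusters, the one to pass the filter was RPL9P28, a ribosomal protein pseudogene whose reads may come from its parent gene, at 2.07 and 1.90 TPM with GD-07 and at 1.39 and 1.56 TPM in controls (limma adjusted p = 0.457).

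The HOXC cluster lies on chromosome 12 from 53938765 to 54056030 and spans 117.3 kb. It has no members of paralog groups 1 to 3, and 7 of its 9 genes passed the filter. HOXC9 was the highest HOX gene by mean level, at 109.7 and 111.7 TPM with GD-07 and at 129.6 and 133.9 TPM in controls. HOXC10 came next, at 95.9 and 104.7 TPM with GD-07 and at 119.7 and 101.2 TPM in controls, and the ranges of these neighbours touch neither within GD-07 nor within control libraries. The posterior edge lay just past HOXC10. HOXC11, whose start is 11.9 kb from that of HOXC10, was at 1.77 and 1.79 TPM with GD-07 and at 1.91 and 2.20 TPM in controls, so HOXC10 stood 54.2-fold and 58.5-fold above it with GD-07 and 62.8-fold and 46.0-fold in controls. HOXC12 was at 0.560 and 0.765 TPM with GD-07 and at 1.05 and 0.791 TPM in controls, just under the filter. HOXC13, known for hair and nail keratin genes, was at 0.853 and 0.946 TPM with GD-07 and at 0.484 and 0.408 TPM in controls. Its groups did not overlap, and with the filter lowered to 0.5 TPM its log2 fold change was 0.39 ± 0.19 (limma adjusted p = 0.242).

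HOXA lies on chromosome 7 from 27092993 to 27200106. None of its 11 genes passed the filter. The highest value of any HOXA gene in any library was 0.307 TPM, for HOXA5 in control replicate 2. HOXA6 had the highest mean, with 0.240 and 0.288 TPM with GD-07 and 0.159 and 0.307 TPM in controls. HOXA9, a factor of blood progenitors and leukaemia, followed HOXA5 in that order, at 0.0366 and 0.200 TPM with GD-07 and at 0.0949 and 0.0523 TPM in controls. For none of these 3 genes did the groups separate.

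HOXD lies on chromosome 2 from 176092891 to 176190907. It was low throughout, and 2 of its 9 genes passed the filter. These were HOXD9, at 1.80 and 2.43 TPM with GD-07 and at 1.73 and 1.72 TPM in controls, and HOXD10, at 1.22 and 1.32 TPM with GD-07 and at 1.46 and 1.01 TPM in controls. HOXD3 was at 0.703 and 1.01 TPM with GD-07 and at 0.484 and 0.398 TPM in controls, so the groups separated, and under the lowered filter its value was 0.36 ± 0.19 in log2 units (limma adjusted p = 0.298). HOXD11 was at 0.618 and 0.408 TPM with GD-07 and at 0.526 and 0.694 TPM in controls, with overlapping groups. HOXD12 and HOXD13, which pattern digits and external genitalia, were at or below 0.0181 TPM in every library. Among the other genes under the filter the groups also separated for HOXA13, at 0.189 and 0.0592 TPM with GD-07 and at 0.0252 and 0.0334 TPM in controls. HOXD8 lay the same way, at 0.581 and 0.393 TPM with GD-07 and at 0.335 and 0.228 TPM in controls. HOXD1 lay the other way, at 0.0588 and 0.0982 TPM with GD-07 and at 0.225 and 0.141 TPM in controls. All 3 were too low to be tested under either filter. HOXB1 and HOXC12, whose values are given above, also had both GD-07 libraries below both controls, and the value of HOXC12 under the lowered filter was -0.21 in log2 units (limma adjusted p = 0.559). Among all genes above the 1 TPM filter, the groups separated with GD-07 lower in 30.5% and with GD-07 higher in 25.3%. No such share was taken over genes under the filter. Just inside and outside the filter over all clusters lay HOXD10 at a mean of 1.25 TPM and HOXC12 at 0.791 TPM.

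Paralogs of 1 group differed by cluster, which group 4 shows with all 4 of its members. HOXB4, known for expanding blood stem cells, was at 31.4 and 30.5 TPM with GD-07 and at 39.7 and 33.0 TPM in controls. HOXC4 was at 20.1 and 22.9 TPM with GD-07 and at 22.9 and 18.1 TPM in controls. HOXD4 was at 0.595 and 0.432 TPM with GD-07 and at 0.498 and 0.575 TPM in controls, and HOXA4 was listed at 0 in 3 libraries and at 0.0133 TPM in GD-07 replicate 1. HOXB4 and HOXC4 were therefore high and the other members low, with GD-07 and in controls. The region from 250 bases before to 50 bases after the annotated start is printed from RefSeq (GRCh38.p14) for HOXC4, HOXA4, HOXD4 and HOXD10 to set sequence beside these levels. Capitals mark CACGTG, the E-box that MYC is known to bind, which reads alike on both strands.
HOXC4: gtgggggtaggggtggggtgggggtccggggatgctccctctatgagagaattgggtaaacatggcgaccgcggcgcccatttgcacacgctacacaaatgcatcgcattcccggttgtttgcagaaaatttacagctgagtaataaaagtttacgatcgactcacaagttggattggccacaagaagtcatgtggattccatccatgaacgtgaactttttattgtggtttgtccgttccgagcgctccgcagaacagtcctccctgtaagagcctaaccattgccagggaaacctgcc
HOXA4: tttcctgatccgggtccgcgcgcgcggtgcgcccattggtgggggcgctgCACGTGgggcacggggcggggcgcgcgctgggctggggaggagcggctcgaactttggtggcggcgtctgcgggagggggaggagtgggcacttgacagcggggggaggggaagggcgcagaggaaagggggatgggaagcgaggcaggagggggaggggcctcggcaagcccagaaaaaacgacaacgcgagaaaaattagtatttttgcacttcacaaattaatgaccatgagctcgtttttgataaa
HOXD4: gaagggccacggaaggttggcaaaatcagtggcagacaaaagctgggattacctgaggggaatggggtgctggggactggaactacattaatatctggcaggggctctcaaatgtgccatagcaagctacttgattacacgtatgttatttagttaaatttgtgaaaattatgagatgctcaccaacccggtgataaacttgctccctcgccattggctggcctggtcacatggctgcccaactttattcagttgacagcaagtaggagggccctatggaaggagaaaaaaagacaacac
HOXD10: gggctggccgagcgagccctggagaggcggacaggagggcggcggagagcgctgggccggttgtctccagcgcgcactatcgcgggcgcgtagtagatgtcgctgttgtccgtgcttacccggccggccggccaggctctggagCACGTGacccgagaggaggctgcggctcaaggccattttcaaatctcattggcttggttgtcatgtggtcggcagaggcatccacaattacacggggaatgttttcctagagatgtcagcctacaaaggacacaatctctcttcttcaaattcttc
The HOXC4 region is chr12:54016638-54016937 on the plus strand, and it is also the listed start of HOXC5. HOXA4 is at chr7:27130708-27131007 on the minus strand, HOXD4 at chr2:176151300-176151599 and HOXD10 at chr2:176116528-176116827, both on the plus strand. The near-silent HOXA4 had 27 CpG dinucleotides in its 300 bases and the active HOXC4 had 15, against 4 in HOXD4, 23 in HOXD10 and a median of 14 over all 35116 listed regions. CACGTG was found in HOXA4 and HOXD10 and not in HOXC4 or HOXD4. The table of RefSeq regions used here held 20 of the 39 HOX genes, 9 of which (45%) held CACGTG in at least 1 region, against 8.77% of 27305 genes. Genes with several listed starts had more chances to hold it. CACGTG itself holds a CpG, and the HOX regions had a median of 22 CpG dinucleotides against 14 over all regions. The part of this in the 45% was not tested, and these matches are letters in a window, not binding. TGATTNAT, the composite motif of HOX and PBX proteins, searched on both strands, was found for HOXA2 and HOXD11, 10% of the 20, against 3.47% of all genes. Of the 18 genes that passed the filter, HOXC4, HOXC5 and HOXD10 were in that table, so levels and motifs could be compared for few expressed genes.

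The clusters also hold microRNA genes, whose mature forms are not analysed here. These include MIR10A and MIR196A1 in HOXB, MIR196A2 and MIR615 in HOXC, MIR196B in HOXA and MIR10B in HOXD. The 5p forms of miR-10a and of the miR-196 family are shown with the seed, bases 2 to 8, in capitals, because HOX mRNAs are known targets of miR-196 and because these genes lie in clusters that differ in level.
hsa-miR-10a-5p: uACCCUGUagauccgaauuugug
hsa-miR-196a-5p: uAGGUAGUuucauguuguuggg
hsa-miR-196b-5p: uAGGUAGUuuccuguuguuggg
In GRCh38, mature miR-10a-5p maps to chr17:48579904-48579926 in HOXB, within the annotated spans of HOXB3 and HOXB4. The miR-196a-5p copy of MIR196A1 maps to chr17:48632532-48632553, between the starts of HOXB9 and HOXB13 and within the annotated span of HOXB7. That of MIR196A2 maps to chr12:53991762-53991783, between the starts of HOXC10 and HOXC9 and within the annotated span of HOXC6. These 3 lie in the clusters with high transcript levels. miR-196b-5p maps to chr7:27169528-27169549 in HOXA, within the span of the near-silent HOXA9. Both miR-196 forms share the seed AGGUAGU, and miR-10a has the seed ACCCUGU. The DNA letters complementary to the shared seed, ACTACCT, were searched on the sense strand of the longest protein-coding transcript of each gene in GENCODE 29, and were found in 10 of 39 HOX genes (25.6%) and in 17.1% of 19669 protein-coding genes. Only exact matches were sought, so a gene without one may still pair with miR-196. Among HOX genes that passed the filter, exact matches were found in HOXB6, HOXB7, HOXB13 and HOXC8, in each case in the 3′ UTR. The sites of the 3 more highly expressed ones are shown as the 22 bases opposite the microRNA with the seed match in capitals.
HOXB7: aacactgaaaaaatACTACCTa
HOXB6: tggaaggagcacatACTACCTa
HOXC8, first site: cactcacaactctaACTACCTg
HOXC8, second site: taaatctttaacatACTACCTa
Levels of these genes, with and without GD-07, did not share a direction: HOXB7 and HOXC8 lay lower in both GD-07 libraries than in both controls (as did 30.5% of all tested genes), HOXB13 lay higher (25.3%) and HOXB6 overlapped.

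The comparison asks whether GD-07 altered this pattern. No HOX gene passed limma's test on log2(TPM + 1) at a Benjamini-Hochberg adjusted p under 0.05, out of 18 tested within a fit of 13063 genes, whereas 681 of all genes tested (5.21%) passed, 264 higher (2.02%) and 417 lower (3.19%), or 383 higher and 395 lower after quantile normalization. At an unadjusted limma p under 0.05 there was 1 HOX gene, HOXB7, against 24.8% of all genes tested. The median log2 fold change of the 18 was -0.13, with 12 negative and 6 positive, against a median of -0.04 and 53.8% negative over all tested genes. Their median absolute log2 fold change was 0.18, compared with 0.25 over all tested genes. A p that misses the threshold does not show that levels were equal, but the 95% intervals bound the differences. For all 18 the interval lay within a 2-fold change in either direction on this scale, from -0.97 for HOXB7 to 0.67 for HOXD9, and the scale compresses changes of genes near 1 TPM.

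**Figure D2:**
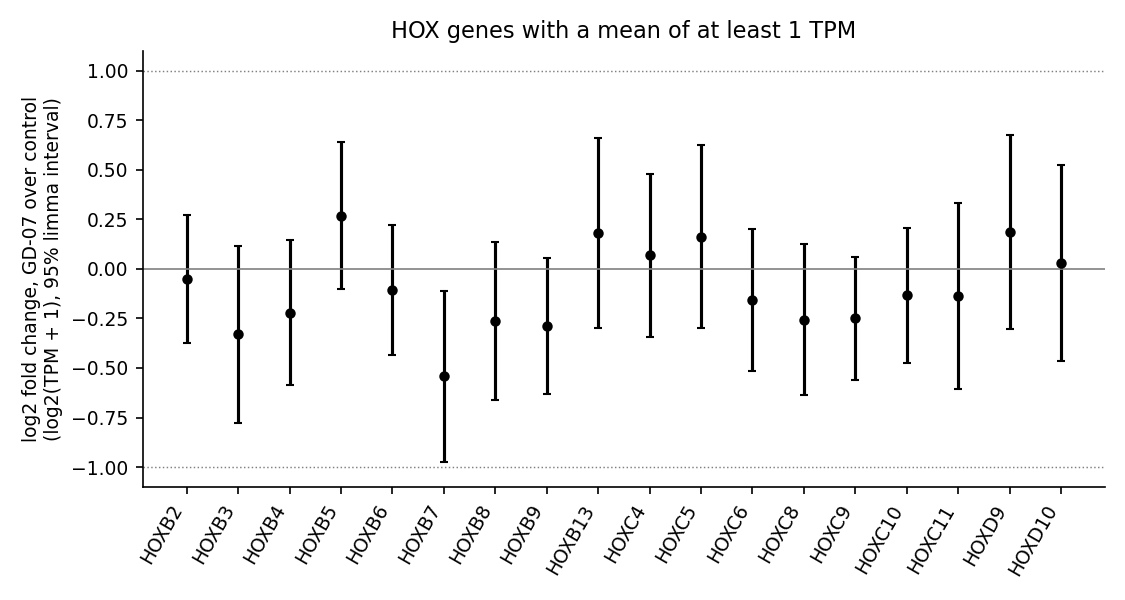
Log2 fold change of GD-07 over control for the 18 HOX genes that passed the 1 TPM filter, on log2(TPM + 1), with limma's 95% interval (2 libraries per group). Dotted lines mark 2-fold changes; all 18 intervals lie between them, and the interval of HOXB7 does not include 0.

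In the HOXB cluster the lowest p belonged to HOXB7, a factor reported at high levels in several carcinomas. It was at 62.1 and 42.3 TPM with GD-07 and at 73.3 and 77.1 TPM in controls. Both GD-07 libraries lay below both controls, and replicate 2 was the lower of them. The log2 fold change was -0.54 ± 0.19 (95% interval -0.97 to -0.11, limma adjusted p = 0.121). Without GD-07 replicate 1 it was -0.81 and passed limma's threshold (adjusted p = 0.00432), and without GD-07 replicate 2 it was -0.27 (adjusted p = 0.28), so its size rested on the library that stood apart. Over the alternative settings other than crossed replicate numbers, its limma adjusted p lay between 0.00432 and 0.35.

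Next to HOXB7, HOXB8 was at 33.4 and 25.9 TPM with GD-07 and at 37.8 and 33.5 TPM in controls. Both GD-07 libraries were below both controls, if narrowly for the closest pair (log2 fold change -0.26 ± 0.18). HOXB9 likewise had both GD-07 values below both controls, and its log2 fold change was -0.29 ± 0.15 (limma adjusted p = 0.273). HOXB4, whose values are given above, was the fourth HOXB gene with non-overlapping groups and a lower GD-07 level (log2 fold change -0.22 ± 0.16, limma adjusted p = 0.432). Over all tested genes, 30.5% had both GD-07 libraries below both controls.

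In HOXB5 and HOXB13 the order was reversed, with both GD-07 libraries above both controls, as in 25.3% of all tested genes. HOXB5 was at 27.5 and 31.1 TPM with GD-07 and at 25.6 and 22.7 TPM in controls, with a difference of 0.27 ± 0.16 in log2 units (adjusted p = 0.345 in limma). HOXB5 lies between HOXB4 and HOXB6, which had negative values. For HOXB13 the value was 0.18 ± 0.21 (limma adjusted p = 0.639).

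The other HOXB genes overlapped between groups. HOXB3 was at 37.3 and 44.1 TPM with GD-07 and at 61.6 and 42.6 TPM in controls, and control replicate 1 alone lay above the rest. Its log2 fold change was -0.33 ± 0.20, or -0.07 without control replicate 1 and -0.59 without control replicate 2. HOXB6 was at 84.6 and 87.1 TPM with GD-07 and at 98.5 and 86.9 TPM in controls, again with 1 control high and the rest alike. HOXB2 had a log2 fold change of -0.05 ± 0.14, the smallest of the cluster in size. The cluster median was -0.22 over 9 genes, or -0.07 without control replicate 1 and -0.35 without control replicate 2.

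In the HOXC cluster the median was -0.14 over 7 genes, or -0.014 without control replicate 1 and -0.23 without control replicate 2. Of these 7 genes, 3 had both GD-07 libraries below both controls, against 30.5% of all tested genes. HOXC9, the highest HOX gene, differed by -0.25 ± 0.14 (95% interval -0.56 to 0.06, limma adjusted p = 0.296). HOXC8 was at 24.1 and 26.9 TPM with GD-07 and at 33.7 and 27.9 TPM in controls (log2 fold change -0.26 ± 0.17). HOXC11 was the third, with -0.14 ± 0.21. HOXC6, whose closest control lay inside the GD-07 range, was at 75.0 and 81.8 TPM with GD-07 and at 97.4 and 78.7 TPM in controls. HOXC10 overlapped as well, with a log2 fold change of -0.13 ± 0.15. HOXC4 had 0.07 ± 0.18, and HOXC5 was at 4.30 and 4.12 TPM with GD-07 and at 3.95 and 3.37 TPM in controls, with a fold change of 0.16 ± 0.20 in log2 units (adjusted p = 0.662 in limma). In HOXD, HOXD9 had a log2 fold change of 0.18 ± 0.22 with both GD-07 libraries above both controls, and HOXD10 one of 0.03 ± 0.22.

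In all, 7 of the 18 tested HOX genes had both GD-07 libraries below both controls, against 30.5% of all tested genes. Another 4 had both above, against 25.3% of all tested genes, and 7 overlapped. By position, the median log2 fold change was -0.14 over 4 anterior genes (paralog groups 1 to 4), -0.16 over 7 central genes (groups 5 to 8) and -0.13 over 7 posterior genes (groups 9 to 13). No position class held a gene that passed. Summed over each cluster, HOXB was at 425.8 and 412.8 TPM with GD-07 and at 514.1 and 451.9 TPM in controls. HOXC was at 332.3 and 355.7 TPM with GD-07 and at 410.7 and 366.6 TPM in controls. Both sums were lower in each GD-07 library than in each control. HOXD was higher in each GD-07 library, at 5.61 and 6.09 TPM against 5.27 and 4.77 TPM in controls, and HOXA overlapped, at 0.771 and 0.609 TPM with GD-07 and at 0.464 and 0.889 TPM in controls. An exact permutation test of 2 libraries against 2 cannot go below a two-sided p of 0.333, and the sums were not tested. In a bulk sample, fewer cells with a transcript and less transcript per cell cannot be told apart.

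**Figure D3:**
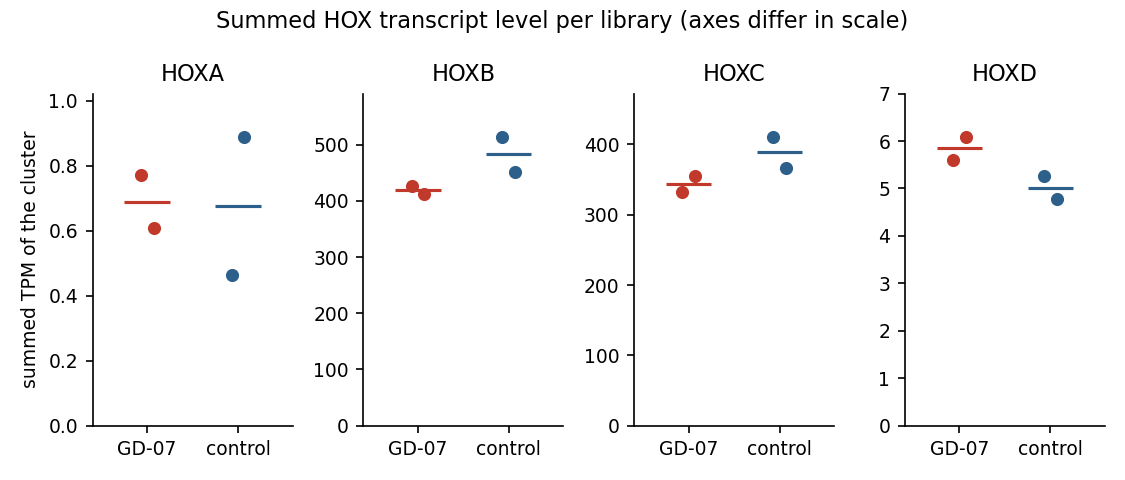
Summed TPM of each HOX cluster in each library (points; line, group mean), GD-07 in red and control in blue, with a separate linear axis from 0 for each cluster. HOXB and HOXC sums lie lower in both GD-07 libraries than in both controls, with control replicate 1 the highest; HOXD lies higher and HOXA overlaps.

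Control replicate 1 was high for many of these genes. Of the 18 tested HOX genes, 15 were higher in control replicate 1 than in control replicate 2, as were 70.4% of all tested genes, and their median replicate difference was 0.18 on the log2 scale, close to the 0.18 of their median absolute difference between GD-07 and control. Between the GD-07 libraries, 6 of 18 were higher in replicate 1, as were 40.7% of all tested genes. Some exons are shared within a cluster on the same strand, and how the authors' counting divided such reads is not given in the sources used here. HOXC4 and HOXC6 share 484 annotated exon bases, HOXD10 and HOXD11 share 452, HOXB3 and HOXB6 share 433, HOXB3 and HOXB4 share 159 and HOXC6 and HOXC9 share 73, so the split between members of a pair is uncertain. Annotated noncoding genes lie on the opposite strand of 11 of the 18 tested genes, and nothing in the labels says that strand was used in counting.

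HOX proteins bind DNA together with TALE homeodomain cofactors, the PBX, MEIS and PKNOX families. PBX2, PBX3 and the MEIS genes were abundant in A2780 cells, whereas PKNOX1 averaged 7.30 TPM and PKNOX2 0.625 TPM, which is under the filter. None of the 10 TALE genes tested, TGIF repressors included, passed in limma, against 5.21% of all tested genes. PBX3 was at 96.6 and 103.9 TPM with GD-07 and at 129.9 and 100.8 TPM in controls, and PBX2 at 68.6 and 81.6 TPM with GD-07 and at 97.2 and 79.0 TPM in controls. MEIS1, a leukaemia partner of HOXA9, was at 38.0 and 37.9 TPM with GD-07 and at 51.3 and 43.2 TPM in controls, below both controls in each GD-07 library (log2 fold change -0.30 ± 0.16, limma adjusted p = 0.262). MEIS3 lay the other way, at 70.5 and 60.3 TPM with GD-07 and at 51.1 and 51.3 TPM in controls (0.34 ± 0.15, limma adjusted p = 0.2). MEIS2 varied widely between replicates, at 39.4 and 58.2 TPM with GD-07 and at 74.8 and 50.4 TPM in controls. PBX4, PKNOX1, TGIF1 and TGIF2 had log2 fold changes of 0.19, 0.09, -0.25 and 0.20.

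Polycomb complexes keep HOX clusters silent and trithorax complexes keep them active. Of 34 Polycomb genes tested none passed in limma, against 5.21% of all tested genes. Their median log2 fold change was -0.12, against -0.04 over all tested genes. The smallest p-values were those of PHF19, which brings Polycomb to marked chromatin, and KDM2B, which brings it to CpG islands. PHF19 was at 41.0 and 31.6 TPM with GD-07 and at 59.6 and 57.5 TPM in controls (log2 fold change -0.69 ± 0.17, limma adjusted p = 0.0501). KDM2B was at 11.4 and 12.5 TPM with GD-07 and at 23.3 and 18.0 TPM in controls (-0.73 ± 0.19, limma adjusted p = 0.0567). Both stood just outside the threshold. KDM2B passed with median-ratio scaling (limma adjusted p = 0.0400), quantile normalization (0.0415) and without control replicate 2 (0.0432), and had 0.431 without control replicate 1. PHF19 passed with the replicate block (limma adjusted p = 0.0268) and without GD-07 replicate 1 (0.004), and had 0.183 without control replicate 1. Of 24 genes of the trithorax and H3K27 demethylase list, 1 fell, against 3.19% of all tested genes, and 23 did not pass. The median log2 fold change of the list was -0.14. The gene that fell was NSD1, a histone H3K36 methyltransferase, at 2.35 and 2.15 TPM with GD-07 and at 5.49 and 5.62 TPM in controls (-1.01 ± 0.20, limma adjusted p = 0.0311). Its call ended without control replicate 1 (adjusted p = 0.0903) and without control replicate 2 (0.0675).

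Retinoic acid opens HOX clusters in sequence from the anterior end during development. None of 15 tested genes of its pathway passed in limma, against 5.21% of all tested genes. The receptor RARG was at 53.7 and 53.2 TPM with GD-07 and at 87.3 and 69.7 TPM in controls (log2 fold change -0.54 ± 0.16, limma adjusted p = 0.0814), and the corepressor NCOR1 at 48.4 and 79.7 TPM with GD-07 and at 33.7 and 39.1 TPM in controls (0.76 ± 0.23, adjusted p = 0.0812). The value of NCOR1 was 1.11 without GD-07 replicate 1 (limma adjusted p = 0.00131) and 0.41 without GD-07 replicate 2 (0.164), and it passed with the replicate block (0.0104) and without control replicate 2 (0.0251). Of 11 tested homeobox and axial patterning regulators outside the clusters, none passed in limma, again against 5.21%. Every one of the 11 had a value below 0, with median -0.35, against 53.8% negative and a median of -0.04 over all tested genes. YY1, a zinc finger protein that binds Polycomb sites, was at 37.5 and 40.3 TPM with GD-07 and at 69.0 and 54.0 TPM in controls (-0.64 ± 0.17, limma adjusted p = 0.0581). MEOX2, a mesodermal homeobox factor, was at 35.0 and 47.4 TPM with GD-07 and at 67.9 and 54.2 TPM in controls (-0.56 ± 0.19, adjusted p = 0.111).

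Among genes of Müllerian duct and gonad development, 4 of 23 found in the table were tested. PAX2, a paired-box factor of the Müllerian and nephric ducts, fell to 3.65 and 4.65 TPM with GD-07, against 14.3 and 9.31 TPM in controls (log2 fold change -1.29 ± 0.24, limma adjusted p = 0.0275, and 0.0824 without control replicate 1).

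The genes beside the clusters were taken as the 3 nearest protein-coding genes on each side of each cluster. There were 24 in all, from 8.98 kb (EVX2) to 1037 kb (NFE2L2) away from their cluster. Of these 20 were tested and 2 fell, while the other 18 missed the threshold. Over all tested genes, 3.19% fell and 5.21% passed in either direction. Their median log2 fold change was 0.02. SKAP1, a T cell adaptor protein that lies 98.3 kb from HOXB, fell to 7.30 and 4.76 TPM with GD-07, against 13.3 and 16.0 TPM in controls (-1.17 ± 0.23, limma adjusted p = 0.0293, or 0.0553 after quantile normalization). CBX5, which encodes heterochromatin protein HP1 alpha and lies 174.9 kb from HOXC, fell to 96.0 and 79.8 TPM with GD-07, against 131.2 and 145.7 TPM in controls (-0.65 ± 0.15, limma adjusted p = 0.0466). The call of CBX5 ended without control replicate 1 (adjusted p = 0.113), without control replicate 2 (0.198), with median-ratio scaling (0.0921), with quantile normalization (0.0603), with a pseudocount of 0.1 TPM (0.0525), with a 0.5 TPM filter (0.0603) and without the trend (0.0911). Its relatives CBX1, 427.0 kb from HOXB, and CBX3, 879.6 kb from HOXA, are the other HP1 genes. CBX1 was at 125.0 and 132.3 TPM with GD-07 and at 186.4 and 164.1 TPM in controls (-0.44 ± 0.14, limma adjusted p = 0.104), and CBX3 at 145.7 and 165.4 TPM with GD-07 and at 208.1 and 191.0 TPM in controls (-0.36 ± 0.15, adjusted p = 0.172).

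**Figure D4:**
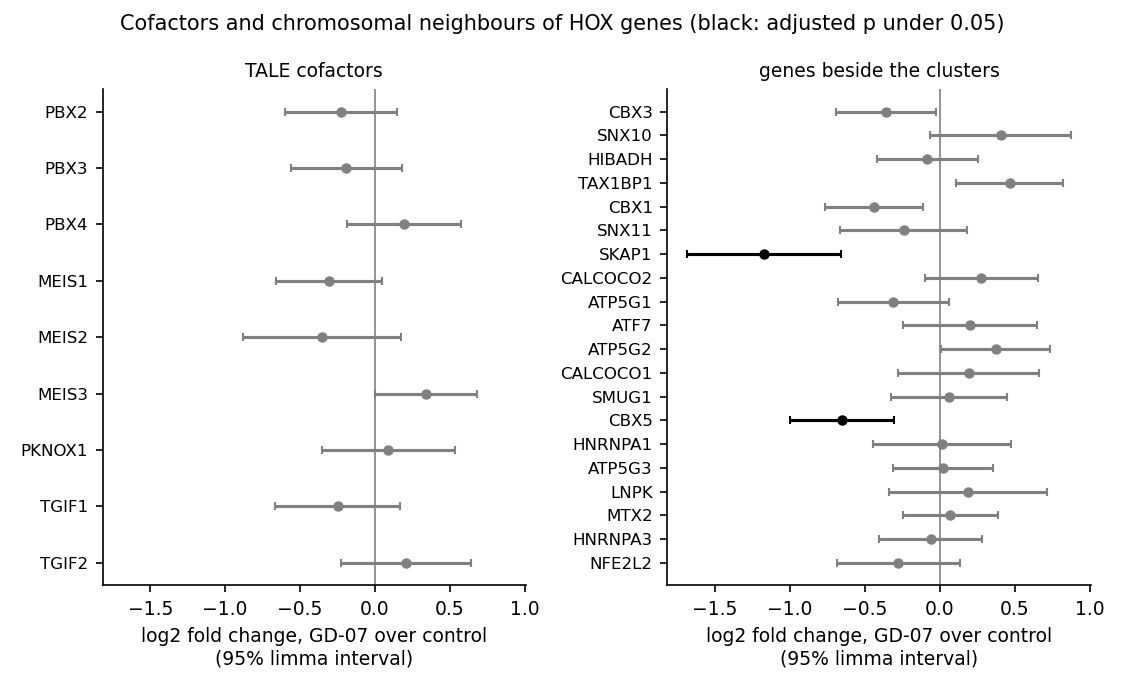
Log2 fold change of GD-07 over control with limma's 95% interval for TALE cofactors (left) and the tested genes nearest to the HOX clusters (right). SKAP1 and CBX5, in black, passed at an adjusted p under 0.05; genes in grey did not.

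Neighbours on the other sides had values of either sign. TAX1BP1, an autophagy receptor beside HOXA, was at 59.8 and 61.7 TPM with GD-07 and at 48.3 and 39.4 TPM in controls (0.47 ± 0.16, limma adjusted p = 0.111). ATP5G2, an ATP synthase subunit gene beside HOXC, was at 514.6 and 626.5 TPM with GD-07 and at 425.3 and 451.2 TPM in controls (0.37 ± 0.16, limma adjusted p = 0.189). Its relatives had -0.31 (ATP5G1, 163.6 kb from HOXB) and 0.02 (ATP5G3, 908.3 kb from HOXD). The remaining tested neighbours, SNX10, HIBADH, SNX11, CALCOCO2, ATF7, CALCOCO1, SMUG1, HNRNPA1, LNPK, MTX2, HNRNPA3 and NFE2L2, had log2 fold changes between -0.28 and 0.41. The cluster-edge homeobox genes EVX1, 42.6 kb from HOXA, and EVX2, 8.98 kb from HOXD, were at or below 0.0376 TPM in every library, like the silent ends beside them. Of 26 noncoding RNAs and short coding genes listed for the clusters, PRAC1 and PRAC2 were matched by name, and both were at or below 0.623 TPM in every library; the antisense and long noncoding RNAs were not analysed here.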

How the data were processed

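Polyadenylated RNA of 2 GD-07 and 2 control A2780 libraries was measured, per the labels' protocols with a NEBNext Ultra II kit and paired reads. The authors deposited TPM per gene symbol. The submitters' processing notes list Subread, kallisto, limma 3.60.4 and GRCh38; no source used here gives their roles, or how transcripts were summed to genes.

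The members, lists and tests were chosen with earlier results of these data known. Genes averaging 1 TPM or more were kept, and log2(TPM + 1) was compared with limma 3.58.1 in R 4.3.3 (intensity trend, two-sided, Benjamini-Hochberg over 13063 genes, threshold 0.05). Errors of TPM means and of fold changes are SD and limma's moderated standard error, in that order. The procedure was tested on simulated data. Every kept HOX gene is named, as are the leading genes below the filter in each cluster, all kept TALE cofactors and neighbours, and of other lists up to 4 genes that passed, otherwise the 2 with the smallest p. THY1, FOLR1, MUC1, KRT18, EPCAM, HOXA13, HOXD1 and HOXD8 were singled out after their values were seen. Coordinates come from GENCODE 29 and RefSeq sequences from GRCh38.p14. Alternatives changed scaling, pseudocount, filter, trend, replicate block and libraries. Some genes that these rules name are not reported here. The depth is unknown, so no counting intervals are given.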

Additional observations from a re-analysis of the deposited data

How the results depend on the processing

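No HOX gene passed under median-ratio or quantile scaling, pseudocounts of 0.1 or 5 TPM, a 0.5 TPM filter, no filter, no intensity trend or the replicate block. Leaving out 1 library gave 0 to 1 HOX genes, HOXB7 without GD-07 replicate 1. The count over all genes was 0 without a filter (3970 at an unadjusted limma p under 0.05, smallest adjusted p = 0.219), 385 without the trend, and 310 to 2217 when 1 library was left out. Such fits take their spread from the remaining pair and assume that the lone library varies like it. With the replicate number as a block, 912 genes passed. Same-numbered libraries deviated in opposite directions (r = -0.28 across genes). Each group gives a single replicate difference, so this cannot settle whether same-numbered libraries belong together. Crossing the numbers, chosen after seeing the data, gave 2934 genes and 1 HOX gene, HOXB7.

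When 1 library was left out, the median log2 fold change was -0.35 to -0.070 for HOXB, -0.23 to -0.014 for HOXC, 0.020 to 0.19 for HOXD, -0.24 to -0.019 for anterior, -0.31 to -0.017 for central and -0.14 to -0.014 for posterior HOX genes; that of posterior genes was 0.0067 without a filter. HOXA has no median because none of its genes was kept. Filter, trend and replicate block, crossed or not, leave the fold change of a gene as it is. Under scaling, pseudocount and left-out libraries, which could turn a sign, 15 of the 18 HOX genes kept theirs, and HOXB2, HOXC4 and HOXD10 did not. With 1 library left out, these had -0.13 to 0.032, -0.093 to 0.23 and -0.12 to 0.17, and HOXB2 had 0.0066 after quantile normalization. Other signs that turned when 1 library was left out were those of PKNOX1 (-0.030 to 0.21), TGIF1 (-0.50 to 0.0045), CALCOCO1 (-0.069 to 0.45), SMUG1 (-0.12 to 0.24), HNRNPA1 (-0.17 to 0.20), ATP5G3 (-0.032 to 0.073), LNPK (-0.040 to 0.42) and HNRNPA3 (-0.14 to 0.017, and 0.010 after quantile normalization). None of these genes passed in the fit of all 4 libraries. Calls were gained by YY1 with the replicate block (limma adjusted p = 0.042) and without each library but control replicate 1 (0.028 to 0.0403), by RARG (0.0439) and ATP5G2 (0.0228) without GD-07 replicate 1, and by MEOX2 (0.0158), TGIF1 (0.0412) and CBX1 (0.0485) without GD-07 replicate 2. SKAP1, CBX5, NSD1, PAX2 and THY1 did not pass without a filter (adjusted p 0.219 to 0.228). TPM keeps no depth, so counting error of the low HOXA and HOXD genes cannot be given.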

Other observations

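Level and sign went together among the tested HOX genes in a split chosen after their values were seen, so it has no test. Of the 13 genes averaging 20 TPM or more, 11 had a negative log2 fold change and the median was -0.22, against 57.6% negative and a median of -0.06 over all 5543 genes at that level. Of the 5 genes below 5 TPM, 4 had a positive value and the median was 0.16, against 49.6% positive over 3442 genes. HOXB5 and HOXC4 were the high genes with positive values, and HOXC11 was the low gene with a negative one.

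Counts of HOX genes listed at 0 differed between libraries, with 2 in GD-07 replicate 1, 8 in GD-07 replicate 2 and 4 in each control. GD-07 replicate 2 also had the most zeros over all symbols, 14683. The seed match of miR-196 was found 4 times in the 3′ UTR of HOXA7, at or below 0.0876 TPM in all 4 libraries, and at 2 places in HOXC8.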
